A study of Rattus norvegicus with 15 samples.

Results

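The adhesion molecules described here are 9 genes through which leukocytes attach to the vessel wall. They are the selectins Sele and Selp, the endothelial ligands Icam1 and Vcam1, the integrin chain Itgb2 and the integrin alpha chains Itgal, Itgam, Itgax and Itga4. All probe sets that carry only 1 gene symbol, and that symbol one of these, were taken. This gave 9 of the 31042 probe sets tested and 8 of 14217 genes, because Selp has 2 probe sets and Itga4 was not analysed here. The probe sets were Sele 1388018_at, Selp 1369374_at and 1391946_at, Icam1 1387202_at, Vcam1 1368474_at, Itgb2 1383131_at, Itgal 1393347_at, Itgam 1388046_at and Itgax 1380077_at. Itgam and Itgax are neighbours on rat chromosome 1 (RefSeq, GRCr8).

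Native, untreated kidneys of 5 Lewis-Brown-Norway (LBN) animals formed the control group (ctr). Isografts (sTX) were 5 LBN kidneys placed in LBN rats, and the acute group (aTX) was 5 LBN kidneys placed in Lewis rats, a combination that is rejected. All rats were male and 10 to 12 weeks old, both recipient kidneys were taken out just before grafting, and grafts were collected on day 4. Comparing sTX with ctr asks what grafting into a host without its own kidneys did, and aTX with ctr what this and rejection did together. The comparison of aTX with sTX asks what rejection added, but the hosts also differ in strain (Lewis and LBN). Without a Lewis isograft, rejection and host strain cannot be told apart. The source names of the grafts name Lewis donors, with LBN recipients for aTX and Lewis recipients for sTX, and the strains above follow the methods and the series design. In their treatment field sTX 4 and 5 are named allogeneic, while their titles say syngeneic. The titles were followed, and the limma comparisons described below were repeated without both arrays. The exact tests of unequal change were not. Controls came from the kidney that stayed in the donor, and the sources used here do not say which graft belongs to which control.

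In inflamed vessels, selectins on activated endothelium first catch rolling leukocytes by their carbohydrate ligands. Chemokine signals then switch leukocyte integrins to a state that binds Icam1 and Vcam1, and the cells stop and cross the vessel wall. In the kidney, Icam1 and Vcam1 are also made by tubular and other stromal cells under cytokines, so RNA from a whole kidney does not show which cell carried it.

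Promoter sequences are shown for the endothelial ligands that separated all 3 groups, Icam1 and Vcam1, and for Itgam, the alpha chain with the largest change. RefSeq promoter windows (GRCr8) matched 6 of the 9 members, Icam1, Vcam1, Sele, Itga4, Itgam and Itgax, and the stretches below hold the bases that come before any annotated transcript. Capitals mark, in Icam1 and Vcam1, the letters GGNNNTTCC on either strand, a short form of the site for NF-kappaB, the factor through which inflammatory cytokines switch on many endothelial genes. In Itgam they mark GAGGAA, the core of the site for the myeloid factor PU.1. The Icam1 stretch is chr8:27829595-27829687 on the plus strand, the Vcam1 stretch chr2:206742784-206743033 on the minus strand, and the Itgam stretch chr1:192089342-192089495 on the plus strand.
Icam1: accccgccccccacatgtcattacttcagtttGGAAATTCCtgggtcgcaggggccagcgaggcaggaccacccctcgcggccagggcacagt
Vcam1: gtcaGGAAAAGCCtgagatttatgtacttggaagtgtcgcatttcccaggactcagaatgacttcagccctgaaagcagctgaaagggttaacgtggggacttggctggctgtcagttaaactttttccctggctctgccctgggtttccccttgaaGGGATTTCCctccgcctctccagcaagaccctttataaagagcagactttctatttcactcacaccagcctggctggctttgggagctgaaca
Itgam: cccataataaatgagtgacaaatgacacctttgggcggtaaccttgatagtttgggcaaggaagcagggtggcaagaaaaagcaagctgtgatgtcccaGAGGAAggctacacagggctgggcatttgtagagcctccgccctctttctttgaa
Counted from the annotated start, the marked letters begin at position -218 in Icam1, at -246 and -93 in Vcam1 and at -151 in Itgam. Over all 33469 windows of the same length, GGNNNTTCC occurs in 18.3% and GAGGAA in 27.6%. The windows of Sele, Itgax and Itga4 hold neither run of letters, and no base of them comes before an annotated transcript, so they are not shown. These matches describe letters only, and binding was not measured.

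Signals are MAS5 intensities, Affymetrix's summary of a probe set on a linear scale, on which the median of an array lay between 24.3 and 30. Groups were compared on log2 signals with limma, p was adjusted over the 31042 probe sets (Benjamini-Hochberg), and "rose" or "fell" means an adjusted p below 0.05. Folds are ratios of geometric means, and errors of log2 changes are standard errors of the fit with n = 5 per group. Nothing in the labels says how the kidneys of a group were spread over operation days, so p-values measure the spread between these arrays. Arrays were put in 2 runs by their recorded hybridization times, a new run starting after a gap of more than 30 minutes. These are called wash runs here. The first held ctr 1 to 5 and aTX 2, 3 and 4, the other sTX 1 to 5 and aTX 1 and 5. No run holds both control and syngeneic arrays, so sTX against ctr with the run as a block rests on the acute arrays of both runs. The defining markers of the proximal tubule were measured for 9 of 9 genes in every group, with a summed signal of 20970 to 28760 in ctr, 20040 to 23930 in sTX and 10050 to 13610 in aTX.

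Rejecting kidneys carried more RNA of nearly all measured adhesion molecules than native kidneys. Of the 9 probe sets, 7 rose in aTX against ctr, where 20.2% of all probe sets rose and 22.2% fell. These were Sele, 1 of the 2 Selp probe sets, Icam1, Vcam1, Itgb2, Itgam and Itgax. In sTX against ctr 4 of 9 rose (Icam1, Vcam1, Itgb2 and Itgam), beside 11.4% of all probe sets that rose and 6.32% that fell. Against isografts the same 7 rose in aTX, where 13.9% of all probe sets rose and 22.1% fell. Scaling moves these shares: higher ones made up 64.3% of the calls between sTX and ctr, and 27.7% with arrays centred on their medians. In aTX against sTX the share was 38.7%, and 50.9% after centring. By limma 0 of the 9 fell in any comparison, and 0 also at an unadjusted p below 0.05. The median log2 change of the 9 was 2.32 in aTX against ctr, 0.69 in sTX against ctr and 2.19 in aTX against sTX, and over all probe sets it was -0.07, 0.09 and -0.18. Every acute array lay above every control array for 7 of the 9 probe sets (16.4% of all probe sets), and every syngeneic array above every control array for 2 (8.44%).

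**Figure D1:**
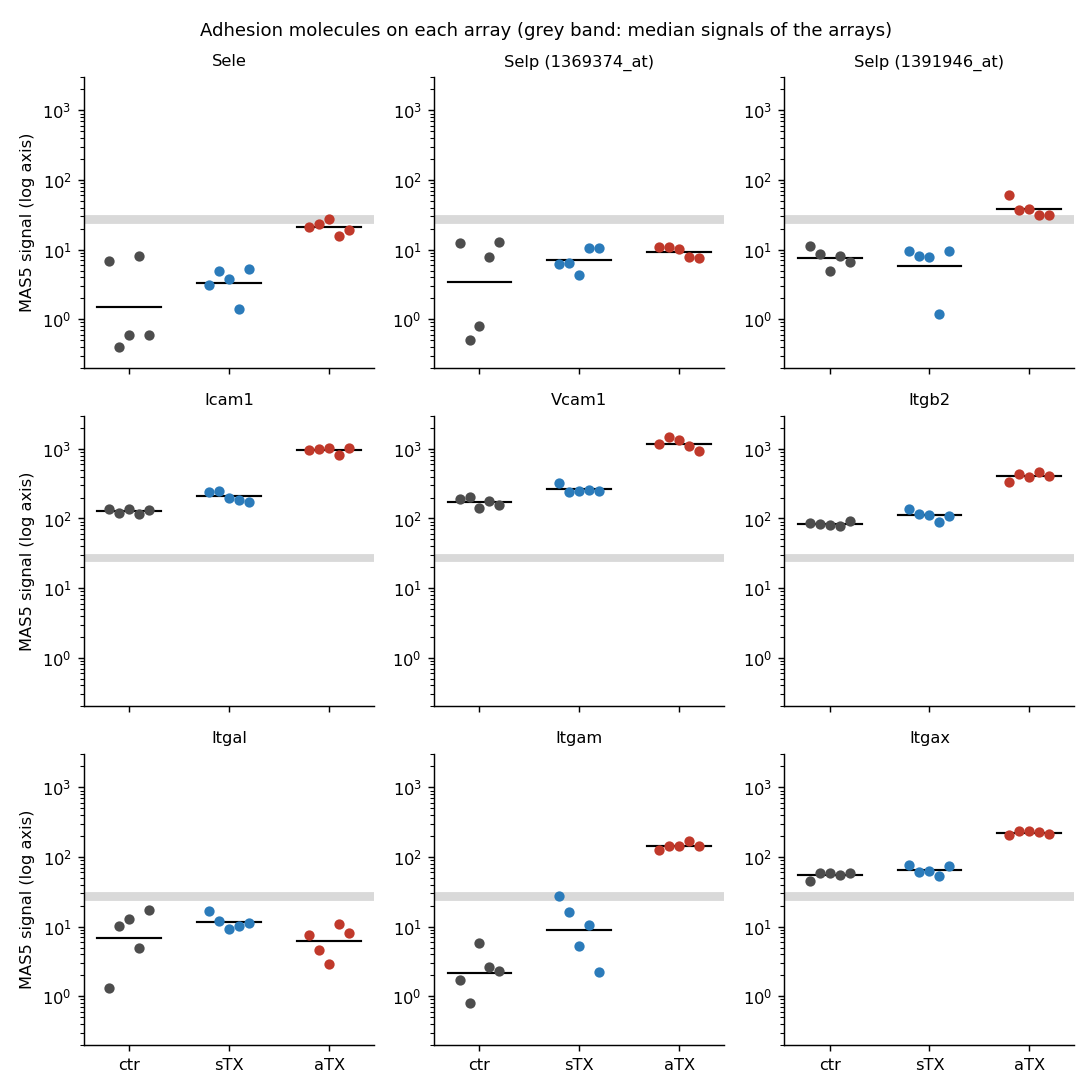
MAS5 signal (log axis) of the 9 member probe sets on each of the 15 arrays, by group; points are kidneys, black lines geometric means, and the grey band the range of array medians, 24.3 to 30. The acute arrays stand above all others for Sele, Selp 1391946_at, Icam1, Vcam1, Itgb2, Itgam and Itgax, while Itgal and Selp 1369374_at lie below the band in every group.

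E-selectin (Sele), which activated endothelium makes to catch leukocytes, was measured at low signals throughout. Its signals were 6.8, 0.4, 0.6, 8.2 and 0.6 in ctr, 3.1, 5.0, 3.8, 1.4 and 5.3 in sTX and 20.8, 23.3, 27.5, 15.6 and 19.0 in aTX. All 5 acute arrays lay above the other 10, and native kidneys and isografts overlapped. The rise in aTX was 13.8-fold against ctr (log2 3.78 ± 0.75, adjusted p = 0.000286) and 6.18-fold against sTX (log2 2.63 ± 0.75, adjusted p = 0.00838). sTX against ctr did not pass (log2 1.15 ± 0.75, adjusted p = 0.34). The size of these folds is uncertain, because all control and syngeneic signals and 4 of 5 acute ones lay below the median of their array. When 16 was added to every signal before taking logarithms (the offset of 16 below), the log2 changes in aTX were 0.96 against ctr and 0.91 against sTX, both past the threshold. With the wash run as a block, the difference from sTX no longer passed (adjusted p = 0.0707), and within the second run it did (adjusted p = 0.0108).

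P-selectin (Selp), stored in endothelial cells and platelets and brought to the surface on activation, gave different answers on its 2 probe sets. On 1391946_at the signals were 11.4, 8.6, 5.0, 8.2 and 6.6 in ctr, 9.4, 8.0, 7.9, 1.2 and 9.7 in sTX and 61.0, 36.8, 37.7, 31.0 and 31.5 in aTX. On this probe set all acute arrays were above their array's median and all others below it. It rose 5.00-fold in aTX against ctr (log2 2.32 ± 0.47, adjusted p = 0.000368) and 6.54-fold against sTX (log2 2.71 ± 0.47, adjusted p = 9.99e-05). Array sTX 4 read 1.2, and without it the rise against sTX was 2.14 on the log2 scale. With the offset of 16 it was 1.25, and 1.2 against ctr. On 1369374_at the signals ran from 0.5 to 12.9 in ctr, 4.3 to 10.6 in sTX and 7.6 to 10.9 in aTX, and the groups overlapped. All of these lay below the median of their array, and neither aTX against ctr (log2 1.42 ± 0.75, adjusted p = 0.147) nor aTX against sTX (0.37 ± 0.75, adjusted p = 0.754) passed. Neither probe set passed in sTX against ctr (adjusted p = 0.654 and 0.401). Platelets, the other source of Selp, were followed by 5 of 8 listed markers. Of these 0 rose and 2 (Gp9 and Itga2b) fell in aTX against ctr, beside 22.2% of all probe sets that fell. All Gp9 signals lay below the median of their array, and its fall did not pass with the wash run as a block (adjusted p = 0.0527). In sTX against ctr 1 of the 5 rose, Pf4, beside 11.4% of all probe sets. Pf4 went from 43.0 ± 7.09 to 97.2 ± 22.7 (adjusted p = 0.00015 in limma). With the wash run as a block that rise did not pass (adjusted p = 0.205). The summed platelet signal was 158 to 193 in ctr, 177.5 to 237 in sTX and 102 to 146 in aTX, and 3 of the 5 markers had a mean below 25 in each group.

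Icam1, the endothelial ligand of the beta2 integrins, stepped up from native kidney to isograft and again to rejecting graft. Its signals were 139, 121.5, 136, 115.5 and 133 in ctr, 238, 250.3, 199.7, 186 and 174 in sTX and 949, 1002, 1026, 810.5 and 1026 in aTX. The 3 groups did not overlap. Icam1 rose 7.45-fold in aTX against ctr (log2 2.90 ± 0.10, adjusted p = 1.49e-14), 1.61-fold in sTX against ctr (0.69 ± 0.10, adjusted p = 4.25e-05) and 4.62-fold in aTX against sTX (2.21 ± 0.10, adjusted p = 1.66e-12). The step from ctr to sTX did not pass with the wash run as a block (log2 0.62, adjusted p = 0.0624). The step from ctr to aTX was 2.87 on the log2 scale within the first run, and that from sTX to aTX 2.25 within the second.

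Vcam1, the endothelial ligand of the integrin that pairs Itga4 with Itgb1, followed the same order. It read 191, 200.5, 141, 179.9 and 154 in ctr, 318.5, 242, 250.4, 257 and 249.3 in sTX and 1193, 1477, 1342, 1082.5 and 945 in aTX. Again no group overlapped another. The rises were 6.96-fold in aTX against ctr (log2 2.80 ± 0.12, adjusted p = 2.3e-13), 1.53-fold in sTX against ctr (0.61 ± 0.12, adjusted p = 0.000883) and 4.55-fold in aTX against sTX (2.19 ± 0.12, adjusted p = 1.7e-11). With the wash run as a block the step from ctr to sTX was 0.89 (adjusted p = 0.0148), so Vcam1 was the only member probe set that still passed there. Only 1.92% of all probe sets had a larger log2 change than Icam1 in aTX against ctr, and 2.08% a larger one than Vcam1.

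Itgb2, the beta chain shared by the leukocyte integrins whose alpha chains are Itgal, Itgam and Itgax, marks leukocytes as a whole. It read 86.5, 84.5, 79.8, 78.4 and 92.5 in ctr, 137, 116, 112, 87.9 and 109.9 in sTX and 337, 436, 388, 465 and 406 in aTX. Acute arrays lay above all others, and sTX 4 fell within the control range. Itgb2 rose 4.8-fold in aTX against ctr (log2 2.26 ± 0.10, adjusted p = 8.55e-13) and 3.62-fold against sTX (1.86 ± 0.10, adjusted p = 3.56e-11). Its 1.33-fold rise in sTX against ctr (0.41 ± 0.10, adjusted p = 0.00938) did not pass with arrays centred on their medians (0.21, adjusted p = 0.164) or with the wash run as a block (0.62, adjusted p = 0.0691).

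Itgam, the alpha chain of the complement receptor of monocytes, macrophages and neutrophils, changed most among the members. It read 1.7, 0.8, 5.9, 2.6 and 2.3 in ctr, 27.9, 16.3, 5.3, 10.6 and 2.2 in sTX and 125.7, 145, 142, 170 and 143 in aTX. The isografts were spread from the control range up to their array's median, and the acute arrays stood far above both. Itgam rose 66.6-fold in aTX against ctr (log2 6.06 ± 0.55, adjusted p = 1.62e-08) and 16.2-fold against sTX (4.02 ± 0.55, adjusted p = 7.07e-06), and 0.0741% of all probe sets changed more in aTX against ctr. Control signals near the lower end of the scale make the size of the fold uncertain, and with the offset of 16 the log2 changes were 3.11 and 2.57. The 4.11-fold rise in sTX against ctr (2.04 ± 0.55, adjusted p = 0.0138) did not pass under the wash run block, where the change was 2.22 (adjusted p = 0.287), or with only the 2 groups in the fit (adjusted p = 0.0632).

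Itgax, the CD11c chain of dendritic cells and many macrophages, rose in rejecting grafts against both other groups. It read 44.8, 58.7, 58.1, 54.4 and 58.9 in ctr, 76.6, 60.7, 63.9, 52.9 and 74.2 in sTX and 206, 236, 238, 226 and 216.5 in aTX. Acute arrays lay above all others, with sTX and ctr overlapping. The rise was 4.10-fold in aTX against ctr (log2 2.04 ± 0.11, adjusted p = 4.83e-12) and 3.45-fold against sTX (1.78 ± 0.11, adjusted p = 8.2e-11). In sTX against ctr the change of 0.25 ± 0.11 did not pass (adjusted p = 0.12), and it passed without sTX 4 (0.33, adjusted p = 0.0383).

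Itgal, the alpha chain of the Icam1 receptor LFA-1 on lymphocytes, showed no change past the threshold. It read 1.3, 10.2, 12.7, 4.9 and 17.5 in ctr, 16.9, 12.1, 9.1, 10.3 and 11.1 in sTX and 7.7, 4.6, 2.9, 11 and 8.1 in aTX. All 15 signals lay below the median of their array and the 3 groups overlapped. The log2 changes were -0.13 ± 0.57 in aTX against ctr (adjusted p = 0.886), 0.78 ± 0.57 in sTX against ctr (adjusted p = 0.414) and -0.91 ± 0.57 in aTX against sTX (adjusted p = 0.245). At this signal a change of Itgal was not detectable, and the sign in aTX against ctr turned without ctr 2, 3 or 5 or aTX 3. On the same arrays the T-cell markers, cells that carry LFA-1, rose for 8 of the 8 measured genes in aTX against ctr. Of all probe sets 20.2% rose there.

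**Figure D2:**
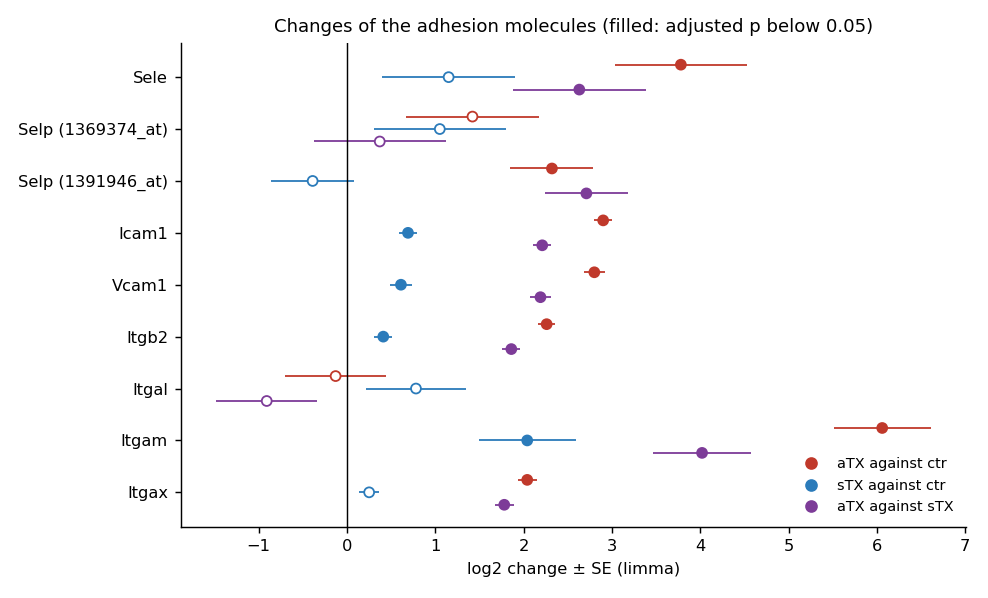
Log2 change ± SE (limma) of each member probe set in aTX against ctr, sTX against ctr and aTX against sTX; filled points have an adjusted p below 0.05. Itgam has the largest change (6.06 in aTX against ctr), Icam1 and Vcam1 move almost alike (2.90 and 2.80), and Itgal and Selp 1369374_at have open points throughout.

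Whether members of a family changed by unequal amounts was tested on the log2 difference of 2 members within each array. A two-sided exact permutation test compared these differences between groups, and p was adjusted over 27 tests. With 5 arrays against 5 the smallest possible p is 0.00794. Among the alpha chains 5 of 9 tests passed. Itgam rose more than Itgax in aTX against ctr (difference 4.02 ± 0.47, exact p = 0.00794, adjusted p = 0.0429) and against sTX (2.23 ± 0.66, adjusted p = 0.0429 by the same exact test). With the offset of 16 these differences were 1.35 and 1.0 (adjusted p = 0.0143 in the exact test for both), and 6 of the 9 tests passed. All control and syngeneic signals of Itgam lay below the median of their array. On the plain log2 scale the other 3 tests that passed set Itgal against Itgam or Itgax. They do not show that Itgal changed less, because its signals lay below the median on every array. In sTX against ctr 0 of 3 tests passed, on either scale.

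Among Sele, Selp, Icam1 and Vcam1, 0 of 18 exact tests passed after adjustment and 1 had an unadjusted p below 0.05. Icam1 and Vcam1 differed in log2 change by 0.10 ± 0.17 in aTX against ctr (exact p = 0.571), 0.08 ± 0.16 in sTX against ctr (exact p = 0.651) and 0.02 ± 0.15 in aTX against sTX (exact p = 0.825). The result for the selectins depends on the scale, and an offset by construction shrinks the changes of low signals most. With the offset of 16, 13 of the 18 tests passed, and 12 of these set a selectin below Icam1 or Vcam1 in its change, by 0.52 to 1.79. Selectin signals being low, these 12 do not show which changed more. On that scale Icam1 against Vcam1 did not pass in any of the 3 comparisons.

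Endothelium, 1 of the possible sources of Sele, Selp, Icam1 and Vcam1 RNA, was followed by 10 of 12 listed markers, and these moved the other way. In aTX against ctr 0 of the 10 rose and 9 fell, beside 22.2% of all probe sets that fell, with a median log2 change of -0.89. In aTX against sTX 0 rose and 9 fell (median -0.81), beside 22.1% of all probe sets that fell. Markers of other kidney cells fell as well in aTX against ctr, 9 of 9 of the proximal tubule (median -1.09) and 4 of 5 of podocytes (median -1.08), while 1 podocyte marker (Ptpro) rose. The venous and capillary marker Emcn, 760 ± 91.9 in ctr and 656 ± 37.9 in sTX, was 310 ± 24.4 in aTX, 2.44-fold lower than ctr (adjusted p = 8.57e-11). Vwf, the clotting factor that endothelial cells store together with P-selectin, was 246 ± 25.1, 146 ± 24.6 and 67.4 ± 18.2 in the same order, 3.78-fold lower in aTX than ctr (adjusted p = 8.87e-09). The VEGF receptor Kdr (425 ± 51.3 to 177 ± 24.1) and the angiopoietin receptor Tek (360 ± 31.1 to 148 ± 14.6) also fell in aTX against ctr. The junction molecule Pecam1 went from 125 ± 13.8 to 73.2 ± 13.5 (adjusted p = 0.000111). Flt1 was the marker that did not pass (47.3 ± 11.7 and 35.3 ± 2.72, adjusted p = 0.0783), and it fell on median-centred or quantile-normalized arrays, where all 10 did. None of the 10 had a signal of 0, and their summed signal was 2574 to 2907 in ctr, 2259 to 2537 in sTX and 1191 to 1352 in aTX.

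In isografts against ctr 1 endothelial marker rose (Egfl7) and 2 fell (Kdr and Vwf), beside 11.4% and 6.32% of all probe sets. The median log2 change of the markers was -0.18, and 0 passed when the wash run was a block. With median-centred arrays 0 rose and 6 fell there. Every array is scaled to the same mean, so a signal is relative to the other RNA on it. In a piece of kidney, fewer cells of a type, less RNA per cell and more RNA from other cells cannot be told apart. The rise of Icam1, Vcam1, Sele and Selp therefore stands beside a fall of the RNA that marks endothelium, and the part of cell number in either was not tested.

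**Figure D3:**
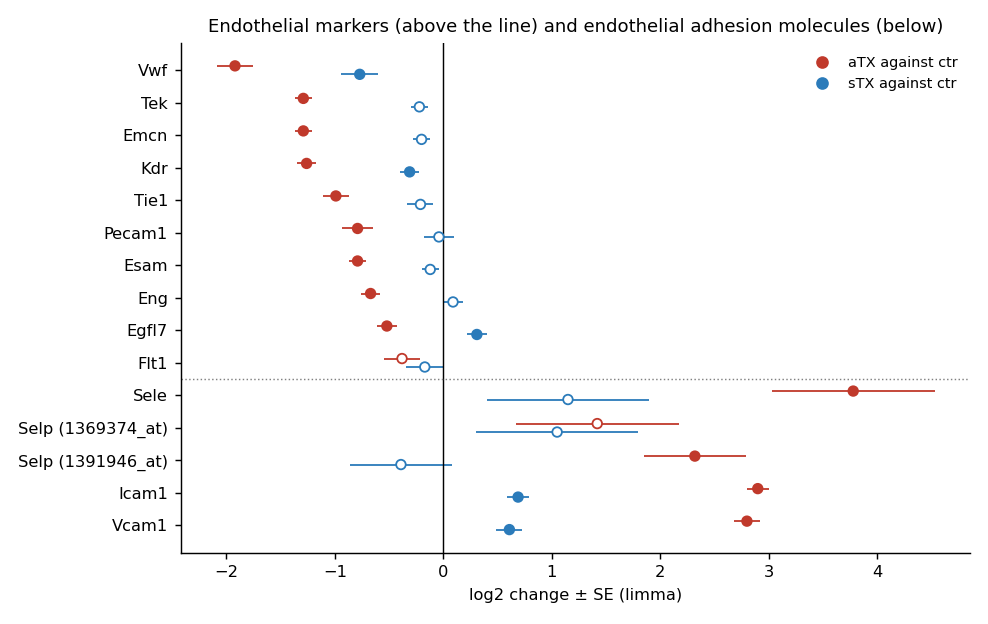
Log2 change ± SE (limma) in aTX against ctr and sTX against ctr for 10 endothelial markers, above the dotted line, and for the probe sets of Sele, Selp, Icam1 and Vcam1 below it; filled points have an adjusted p below 0.05. In aTX against ctr 9 of the 10 markers fell, while Icam1 and Vcam1 rose by 2.90 and 2.80.

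Markers of most leukocyte types rose in aTX against ctr, as did Itgb2, Itgam and Itgax, beside 20.2% of all probe sets that rose. In aTX against ctr 9 of 9 monocyte and macrophage markers rose (median log2 change 3.26), among them the scavenger receptor Cd163 (2.38 ± 1.22 in ctr and 77.9 ± 21.7 in aTX) and the lysozyme gene Lyz2 (1820 ± 206 and 4920 ± 910). Their summed signal was 1832 to 2380 in ctr, 3078 to 4440 in sTX and 7932 to 10530 in aTX. In sTX against ctr 8 of these 9 rose (median 0.85), beside 11.4% of all probe sets, and 6 when the wash run was a block. T-cell markers, 8 measured of 10, summed to 115 to 199.7 in ctr, 174 to 309 in sTX and 1876 to 3032 in aTX. Among them were Cd2 (5.60 ± 4.01 in ctr and 113 ± 11.1 in aTX) and Lck (49.6 ± 10.8 and 574 ± 85.8). Neutrophil markers, which share Itgam with macrophages, rose for 5 of the 6 measured in aTX against ctr, but from low signals, with a sum of 21.0 to 35.3 in ctr, 36.5 to 142 in sTX and 273 to 588 in aTX. Camp did not pass (1.28 ± 0.638 in ctr and 1.44 ± 0.518 in aTX), and S100a9 went from 7.28 ± 4.54 to 146 ± 64.9. All Cxcr2 and Mmp8 signals lay below the median of their array, also in aTX. For Mmp8 ctr and aTX overlapped, and its rise did not pass in limma with the wash run as a block (adjusted p = 0.0574).

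Of 6 measured dendritic cell markers, which share Itgax, 5 rose in aTX against ctr (median 2.06, sum 129.5 to 143 in ctr, 163 to 272 in sTX and 560 to 723 in aTX). Natural killer cell markers rose for 4 of 5, summing to 40.9 to 54.4 in ctr, 62.7 to 86.8 in sTX and 382.5 to 524 in aTX. B-cell markers passed for 0 of 4 in aTX against ctr by limma, with sums of 31.2 to 52.9, 19.8 to 57.6 and 48.9 to 96.7. Of all probe sets 20.2% rose in that comparison. In aTX against sTX 7 monocyte and macrophage markers rose and 1 (Adgre1) fell, from 116 to 82.3 in mean signal. All 8 T-cell markers, 4 of 6 neutrophil, 5 of 5 natural killer cell and 5 of 6 dendritic cell markers rose there, as did 2 of 4 B-cell markers, Ms4a1 (adjusted p = 0.0174) and Cd22 (adjusted p = 0.0216). Over all probe sets 13.9% rose there. All signals of Ms4a1 and the natural killer marker Ncr1 lay below their array's median, and sTX and aTX overlapped for Ms4a1 and Cd22. In limma with the wash run as a block, Cd22 (adjusted p = 0.107), Ncr1 (0.16), the dendritic marker Fscn1 (0.182) and the fall of Adgre1 (0.089) did not pass. No marker of these lists had a signal of 0 on any array. How much of the rise of Itgb2, Itgam and Itgax each cell type carried was not tested.

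The wider adhesion cascade was followed with 53 other genes, of which 44 had a probe set. Of the 44, 22 rose and 7 fell in aTX against ctr, beside 20.2% and 22.2% of all probe sets, with a median log2 change of 0.47. In sTX against ctr 17 rose and 1 (Podxl) fell, beside 11.4% and 6.32% (median 0.27). In aTX against sTX 17 rose and 12 fell, beside 13.9% and 22.1% (median 0.20). Median centring, which moves the median of all probe sets in sTX against ctr from 0.09 to -0.11, gave 11 higher and 6 lower there. Blocking on the wash run left 5 higher (Fut4, Cd44, Fyb1, Apbb1ip and Rasgrp2) and 0 lower in that comparison, so none of the other changes from ctr to sTX named below passed there. In aTX against sTX that block left 15 higher and 9 lower. Calls of Fut4, Itga1, Itga9, Jam3, Cd99 and Cyth1 were lost (adjusted p from 0.0579 to 0.315), and Itgae was gained.

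Among 7 measured selectin partners and enzymes that build selectin ligands, 3 rose and 1 fell in aTX against sTX. Of all probe sets 13.9% rose and 22.1% fell there. St3gal4, a sialyltransferase that caps selectin ligands, was 32.9 ± 6.91 in ctr, 46.7 ± 9.34 in sTX and 278 ± 24.5 in aTX, 6.04-fold higher in aTX than sTX (adjusted p = 4.13e-11). B4galt1, a galactosyltransferase of the same glycans, was 67.2 ± 14.2, 80.3 ± 15.1 and 257 ± 15.9 (3.24-fold, adjusted p = 5.35e-09). Fut4, a fucosyltransferase of myeloid cells, was 26.5 ± 4.33, 53.0 ± 2.02 and 72.2 ± 7.82, and its rise from ctr to sTX also passed with the wash run as a block (adjusted p = 0.0121). Glycam1, a selectin ligand mucin, rose in both grafts (21.0 ± 4.06, 33.4 ± 2.9 and 29.7 ± 4.88), with adjusted p = 0.18 for sTX under the wash run block and 0.0709 for aTX within the first run. The gene that fell was Podxl, a sialomucin of podocytes and endothelium, at 340 ± 32.3, 250 ± 30.3 and 157 ± 9.16.

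Among 8 other integrin chains, 2 rose and 3 fell in aTX against sTX, where 13.9% of all probe sets rose and 22.1% fell. Itgb7, a beta chain that pairs with Itga4 on lymphocytes, was 15.3 ± 3.12 in ctr, 15.1 ± 5.40 in sTX and 96.9 ± 10.9 in aTX, 6.82-fold higher in aTX than sTX (adjusted p = 2.47e-08). Itga5, a chain of the fibronectin receptor, was 34.6 ± 8.70, 50.2 ± 7.10 and 72.3 ± 7.61. Itga6, Itga9 and Itga1 fell in aTX against sTX, the laminin receptor chain Itga6 from 583 ± 58.8 to 384 ± 22.3 (adjusted p = 1.31e-05). Itga9, 56.0 ± 9.96 in ctr, rose to 85.9 ± 14.3 in sTX and was 57.2 ± 6.38 in aTX. The collagen receptor chain Itga1 went from 41.2 ± 13.7 to 84.8 ± 15 and 60.9 ± 6.91. Itgb1, the common partner of Itga4 on Vcam1, rose in both kinds of graft, from 1060 ± 87.1 to 1340 ± 108 in sTX and 1330 ± 43.1 in aTX (adjusted p = 0.00229 and 0.000713 against ctr). The rise in sTX did not pass with the wash run as a block (adjusted p = 0.182).

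Other immunoglobulin-type and junction molecules numbered 4 of 17 higher and 6 lower in aTX than sTX, where 13.9% of all probe sets were higher and 22.1% lower. Cd44, the hyaluronan receptor of activated leukocytes, was 30.9 ± 8.46 in ctr, 122 ± 35.8 in sTX and 578 ± 74.1 in aTX. It rose 3.91-fold in sTX against ctr (adjusted p = 1.7e-07, and 0.000579 under the wash run block), then 4.87-fold in aTX against sTX (adjusted p = 3.03e-09). Pvr, a nectin-like ligand of lymphocyte receptors, was 33.1 ± 9.81, 73.3 ± 20.5 and 216 ± 18.6, and Cd47, which takes part in leukocyte passage, 366 ± 30.5, 393 ± 27.9 and 897 ± 29.9. Nectin2 was 60.8 ± 11, 123 ± 11.1 and 147 ± 21.5, with no call in aTX against sTX (adjusted p = 0.146). Aoc3, an adhesion molecule and amine oxidase of vessel walls, went against the ligands named above, with 52.8 ± 7.59 in ctr, 90.9 ± 15.1 in sTX and 21.1 ± 4.54 in aTX. From sTX to aTX it fell 4.32-fold (adjusted p = 2.2e-09), and its rise in sTX did not pass under the wash run block (adjusted p = 0.467). Cd99, which takes part in the last step of passage, rose in aTX (471 ± 62.4 in ctr and 648 ± 40 in aTX), and its relative Cd99l2 fell (218 ± 17.2 and 87.9 ± 4.04, adjusted p = 2.22e-11). Esam of endothelial junctions (305 ± 27.1 and 177 ± 14.3) and Alcam (188 ± 31.1 and 114 ± 11.3) also fell in aTX against ctr, as did Pecam1. Mcam, a vessel wall molecule, rose in sTX against ctr (83.9 ± 9.33 and 121 ± 21.3).

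Genes that switch leukocyte integrins to their binding state were mostly higher in rejecting grafts. In aTX 8 of 12 were higher and 2 lower than in sTX (median log2 change 1.28). Of all probe sets 13.9% were higher and 22.1% lower there. Fermt3, the kindlin of blood cells that binds integrin beta tails, was 25.6 ± 5.87 in ctr, 40.8 ± 6.55 in sTX and 355 ± 29.5 in aTX, 8.75-fold higher in aTX than sTX (adjusted p = 4.04e-12). The adaptor Fyb1 was 32.3 ± 1.46, 62.1 ± 12.8 and 419 ± 38.8 (6.84-fold, adjusted p = 1.46e-12) and the exchange factor Vav1 17.7 ± 7.18, 26.7 ± 3.01 and 163 ± 9.67 (6.15-fold, adjusted p = 2.57e-09). Apbb1ip, which links the small GTPase Rap1 to talin, was 37.1 ± 4.53, 80.1 ± 14.2 and 362 ± 23.4. Its rise in sTX against ctr, 2.15-fold, also passed with the wash run as a block (adjusted p = 0.00405). Rasgrp2, an activator of Rap1, was higher in sTX (82.7 ± 5.02) than in ctr (46.6 ± 1.65) and in aTX (64.0 ± 12.6). The other that fell from sTX to aTX was Cyth1, a regulator of beta2 integrins, from 113 ± 12.2 to 91.4 ± 10.2. After median centring 9 of the 12 rose and 0 fell from sTX to aTX.

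**Figure D4:**
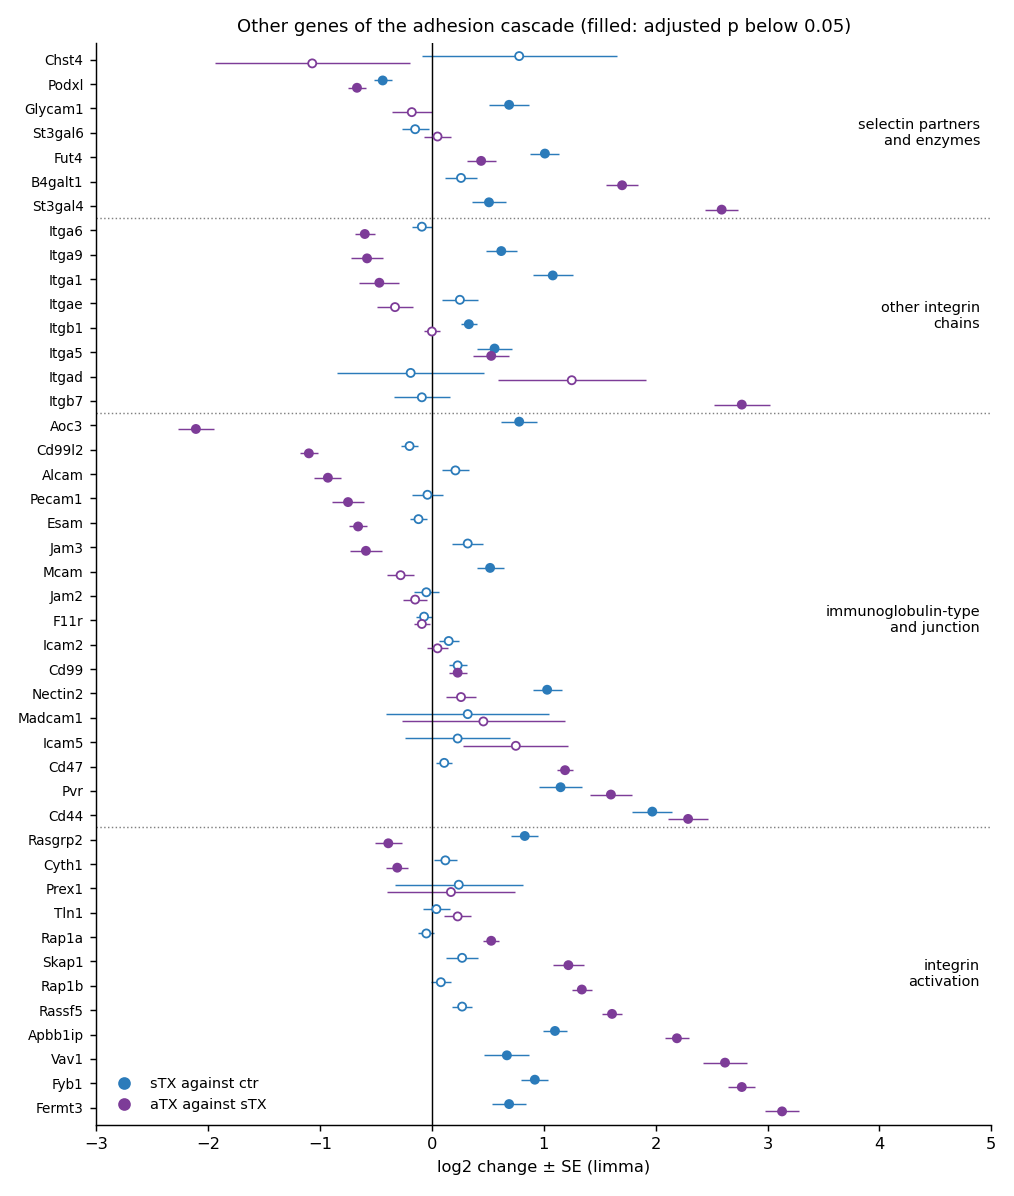
Log2 change ± SE (limma) of 44 other genes of the adhesion cascade in sTX against ctr and in aTX against sTX, grouped by role and ordered by the second; filled points have an adjusted p below 0.05. Fermt3 lies at 3.13 and Aoc3 at -2.11 in aTX against sTX.

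Over the 15 arrays, the genes most like each member were taken by Pearson's r of log2 signals, among 8403 probe sets with 1 symbol and a geometric mean of at least 100 in some group. They were Septin6, Dapp1 and Ripk3 for Icam1 (r = 0.997, 0.996 and 0.996), Skap2, Dram1 and Lyn for Vcam1 (0.994, 0.992 and 0.991) and Adgre5, Coro1a and Mpeg1 for Itgb2 (0.993 each). For Itgax they were Adgre5, Tnfaip2 and Lat (0.993, 0.993 and 0.992), and for Itgam Cxcl9, Ms4a6a and Ubd (0.981, 0.979 and 0.978). Such values are common here, because the group means dominate them. Of the probe sets compared, 9.74% reached r = 0.95 with Icam1, 8.09% with Vcam1, 8.25% with Itgb2, 7.61% with Itgax and 2.48% with Itgam. Sele, Selp 1391946_at and Itgal had 0 such probe sets, and their closest genes were Tent2 (r = 0.948), Runx3 (r = 0.943) and Baz1b (r = 0.881). Between members r was 0.98 for Icam1 with Vcam1 and 0.99 for Itgb2 with Itgax, and -0.18 for Icam1 with Itgal.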

How the data were processed

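The authors deposited MAS5 signal intensities of 15 Affymetrix rat arrays, 1 value per probe set on a linear scale, with every array scaled to a mean of 100 once 2% of probe sets at either end are set aside. Of 31099 probe sets, 57 Affymetrix controls were left out. Gene symbols came from the platform's probe gene table (20826 probe sets with 1 symbol, 436 with several, 9780 unnamed here). A floor of 0.05 replaced the 54 zero signals of 36 probe sets. The log2 signals of all 3 groups entered 1 limma 3.58.1 fit (R 4.3.3) whose eBayes step had an intensity trend. The fit was tested on simulated data. Lists use the probe set of a gene with the highest mean log2 signal. Up to 4 called cascade genes per list with the largest change in aTX against sTX and in sTX against ctr were named if they reached a geometric mean of 50, with every gene of a list where 5 or fewer were called in a direction and the markers at the lowest and highest level of a list. Exact tests used scipy 1.17.1. The members, lists and rules were chosen with earlier results of these data known. Array number limits the precision. Scaling, offset, floor, filter, test, wash run, replicate number and left-out arrays were varied.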

Additional observations from a re-analysis of the deposited data

Results flagged for a closer look

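Within groups of 5, single arrays that stood apart were sought by Dixon's ratio, the gap of the outermost log2 signal to the next over the range of the group, with a limit of 0.71. This covered 171 groups, 27 of them of member probe sets. The others came from only part of the cascade and marker genes, so the listing is not complete for those lists. Chance alone exceeds the limit in about 1 group in 20. Among members, Selp 1391946_at was low in sTX 4 (signal 1.2, ratio 0.902) and high in aTX 1 (61.0, ratio 0.711). Vcam1 was high in sTX 1 (318.5, ratio 0.782), and without that array its log2 change in sTX against ctr was 0.54 (adjusted p = 0.00358 in limma).

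Among cascade genes, Nectin2 was low in aTX 4 (109.6, ratio 0.821), Fermt3 high in aTX 4 (406, ratio 0.748) and Fyb1 low in aTX 2 (350.2, ratio 0.856). Among endothelial markers, Tie1 was low in ctr 2 (81.6, ratio 0.787) and high in sTX 5 (112, ratio 0.774), Vwf was low in aTX 1 (36.8, ratio 0.778) and Egfl7 low in ctr 4 (82.6, ratio 0.749). Among markers of other cells, Cd2 was low in sTX 2 (2.1, ratio 0.714), Lck high in sTX 1 (102, ratio 0.891), Clec10a high in aTX 1 (434, ratio 0.847), the tubular transporter Slc5a2 low in ctr 3 (279, ratio 0.808) and the podocyte gene Nphs1 high in sTX 5 (56.6, ratio 0.872).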

How the results depend on the processing

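Of the 18 member changes that passed, 12 passed under every setting that kept the probe set and 0 changed sign. The filter at a geometric mean of 50 removed Sele and Selp 1391946_at, whose geometric means in aTX were 20.9 and 38.3. It left 5 member probe sets higher in aTX against ctr. Member calls in sTX against ctr were the least stable: of 4 higher probe sets, 2 were left by the methods' t-test (at an unadjusted 0.001 or after adjustment) and 1 with a wash run block. Cascade genes there numbered 11 higher and 6 lower after median centring, 7 and 0 by the t-test at 0.001, and 5 and 0 with the wash run block. In sTX against ctr 2 were lower among brighter probe sets, and 1 to 2 over single left-out arrays. In aTX against sTX that t-test left 6 cascade genes lower. The log2 change of Selp 1391946_at in sTX against ctr, -0.39, was 0.13 without sTX 4 and 5 and ran from -0.57 to 0.18 over left-out arrays, and that of Itgal in aTX against ctr from -0.73 to 0.21. Unequal change of endothelial molecules passed in 0 of 18 tests, in 13 with an offset of 16 and in 1 with means over probe sets. For alpha chains leaving out an array gave 0 passing tests, as 5 arrays against 4 reach only p = 0.0159 in the exact test, which says nothing of stability. Of 15 same-number pairs of arrays 2 correlated above 0.1, with a highest r of 0.18. For 5 arrays the most alike array of another group had the same number. Whether replicate numbers pair the arrays was not tested. A replicate block left the member counts at 7, 4 and 7 and changed no other call of a member; 11 cascade genes were then lower in aTX against sTX. Why calls changed was not tested. Low signals limit Sele, Selp, Itgal and Itgam most, and sTX against ctr could not be compared within 1 wash run.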
